A study of Mus musculus with 12 samples.

Results

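Mitosis and cell division genes were followed in whole-lung RNA of tumour-bearing mice. They are 36 protein coding genes that carry a cell from entry into mitosis to the separation of its daughters, chosen by gene symbol from the 56748 genes of the deposited count table, where all 36 were found on 15 chromosomes. All 36 also passed the filter on low counts that kept 20229 genes for testing. The rule used gene symbols and no measured value, though the members were chosen with earlier results of these data known.

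The study sequenced lung RNA from 3 genotypes of MMTV-PyMT mice, with 4 libraries for each, taken at 4.5 months and labelled as lung metastasis. In these mice the promoter of the mouse mammary tumour virus (MMTV) drives the middle T antigen of polyoma virus, so that mammary tumours form and spread to the lung. All 3 groups also carried MMTV-Cre, a Cre recombinase under the same promoter, and the group called WT had these 2 transgenes alone. The C3 KO group added the C3Tdt allele of complement component C3, and the S1pr1 KO group added floxed alleles (S1pr1fl/fl) of the receptor for sphingosine-1-phosphate. The MMTV promoter is chiefly active in mammary epithelium. Which cells of the lung samples lost either gene was not tested, and the whole-lung levels of both genes are given below. The title of the series asks how the conditional loss of each gene bears on metastasis to the lung. Whether each sample is a separate animal is not stated in the labels, and p-values here speak only for the spread among these libraries.

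Most of these genes share a timetable. Their RNA is low in resting cells, builds up from S phase to mitosis and is cleared in the daughters, so that in a tissue of mostly resting cells it marks the few that divide. Cyclin-dependent kinase 1 with cyclins A and B drives entry, the kinetochore and its checkpoint hold chromosomes until all are attached, the anaphase-promoting complex with Cdc20 and Ube2c then destroys cyclin B, and the central spindle splits the cell. Transcription of many such genes runs through a short promoter element, the cell cycle genes homology region (CHR), bound by the DREAM complex in resting cells and by B-Myb and FoxM1 in dividing cells, together with CCAAT boxes bound by NF-Y.

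Total counts per library were between 32274797 and 53063470. Markers of alveolar type 2 cells and of endothelium were high in every library, with the surfactant gene Sftpc never below 9411 CPM and the endothelial gene Pecam1 never below 729 CPM (CPM, read counts relative to the scaled library total). Epithelial genes that mammary and lung epithelium share, such as Krt8 and Epcam, were present throughout, and 5 of 26 listed mammary markers, all of them milk genes such as Wap and Csn2, were at 0 in at least 1 library. The targeted genes went against the label in 2 libraries. The library labelled C3 KO 4 had 1416 CPM of C3, above all WT libraries (787 to 1025 CPM), while its group otherwise had 465 to 601 CPM. The library labelled S1pr1 KO 2 had 366 CPM of S1pr1, within the WT range of 295 to 491 CPM, while its group otherwise had 132 to 154 CPM. The median of the members in each comparison is given below with and without the library concerned.

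The promoters carry the sequence feature for which this group of genes is known. Of the 36 genes, 31 had an entry in the RefSeq promoter table (build GRCm38.p6, 250 bases before to 50 after the annotated start). Aurkb, Kif20a, Ccna2, Foxm1 and Tpx2 had none. The 150 bases before the start are printed for 8 chosen genes, each with a match, because they show how the elements are spaced. They are Cdk1 with the cyclin genes Ccnb1 and Ccnb2, Cdc20 and Ube2c of mitotic exit, the spindle motor gene Kif11, and the chromosome genes Mki67 and Top2a. These 8 include no gene of the other roles and do not stand for the whole list. Capitals mark the CHR letters TTTGAA or TTTAAA, the NF-Y box CCAAT, or 1 of the E2F 8-mers TTTCCCGC, TTTGGCGC, TTTCGCGC and TTTGCCGC, each searched on both strands, so that TTCAAA and ATTGG are the same elements on the other strand. The windows lie at chr10:69352913-69353062 (minus strand) for Cdk1, chr13:100786487-100786636 (minus strand) for Ccnb1, chr9:70421555-70421704 (minus strand) for Ccnb2, chr4:118437344-118437493 (minus strand) for Cdc20, chr2:164769779-164769928 (plus strand) for Ube2c, chr19:37376232-37376381 (plus strand) for Kif11, chr7:135716380-135716529 (minus strand) for Mki67 and chr11:99024190-99024339 (minus strand) for Top2a.
Cdk1: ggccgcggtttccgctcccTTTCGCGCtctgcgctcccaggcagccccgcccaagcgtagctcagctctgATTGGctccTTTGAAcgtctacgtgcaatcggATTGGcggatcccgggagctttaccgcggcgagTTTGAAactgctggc
Ccnb1: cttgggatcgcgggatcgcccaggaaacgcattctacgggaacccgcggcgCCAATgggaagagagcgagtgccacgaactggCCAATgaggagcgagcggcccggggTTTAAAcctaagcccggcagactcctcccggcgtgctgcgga
Ccnb2: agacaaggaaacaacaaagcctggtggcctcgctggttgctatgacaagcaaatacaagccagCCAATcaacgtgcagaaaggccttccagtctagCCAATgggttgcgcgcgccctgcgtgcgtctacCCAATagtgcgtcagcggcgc
Cdc20: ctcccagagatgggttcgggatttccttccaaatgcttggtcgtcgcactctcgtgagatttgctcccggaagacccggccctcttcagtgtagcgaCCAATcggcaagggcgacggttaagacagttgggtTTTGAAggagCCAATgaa
Ube2c: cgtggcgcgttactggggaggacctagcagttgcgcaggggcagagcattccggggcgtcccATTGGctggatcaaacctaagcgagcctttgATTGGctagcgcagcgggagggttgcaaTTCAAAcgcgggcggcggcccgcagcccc
Kif11: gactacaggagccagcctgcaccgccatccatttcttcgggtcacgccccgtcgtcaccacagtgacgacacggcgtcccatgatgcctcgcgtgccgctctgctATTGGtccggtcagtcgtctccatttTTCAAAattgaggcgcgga
Mki67: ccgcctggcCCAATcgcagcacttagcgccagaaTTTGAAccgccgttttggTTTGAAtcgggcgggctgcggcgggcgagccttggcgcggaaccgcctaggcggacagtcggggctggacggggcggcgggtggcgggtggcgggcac
Top2a: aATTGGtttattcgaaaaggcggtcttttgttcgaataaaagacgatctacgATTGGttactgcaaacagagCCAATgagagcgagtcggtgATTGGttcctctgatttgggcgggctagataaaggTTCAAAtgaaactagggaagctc
In Cdk1 a CHR match began 15 bases before the start, behind a pair of CCAAT boxes at 48 and 80 bases. In Ccnb1 the match was of the second form, TTTAAA, 42 bases before the start. In Ube2c and Kif11 it lay on the other strand, 29 and 19 bases before the start. Ccnb2 shows CCAAT boxes only in the printed stretch, since its CHR matches began 167 bases before and 5 bases after the start.

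Mybl2, which encodes B-Myb, and the kinase gene Melk are printed for contrast, because neither window held any of these letters. They lie at chr2:163054485-163054634 (plus strand) for Mybl2 and chr4:44300767-44300916 (plus strand) for Melk.
Mybl2: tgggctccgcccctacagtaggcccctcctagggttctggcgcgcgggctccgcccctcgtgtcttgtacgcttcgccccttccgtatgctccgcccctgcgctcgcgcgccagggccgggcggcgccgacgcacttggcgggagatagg
Melk: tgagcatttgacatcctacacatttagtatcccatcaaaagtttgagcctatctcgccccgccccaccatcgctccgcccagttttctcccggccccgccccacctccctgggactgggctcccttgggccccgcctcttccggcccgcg
Nuf2 and Nusap1 also had no match in their 300 bases, and Bub1 had CCAAT boxes without a CHR.

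Across the 31 promoters, 26 held a CHR in either form (83.9%, against 30.6% of all 27025 promoters of the same length). The form TTTGAA was in 23 (74.2%, against 20.2%) and TTTAAA in 9 (29.0%, against 14.9%). At least 1 CCAAT box was in 23 (74.2%, against 41.1%), at least 2 in 16 (51.6%, against 13.3%), and a CHR together with a CCAAT box in 22 (71.0%, against 13.4%). Position relative to the annotated start was shared too. A CHR began within 50 bases of that start on either side in 23 of 31 promoters (74.2%), against 8.24% of all promoters. The annotated starts are themselves uncertain. The 30 bases after the start lay in a transcript of the same gene for 22 of the 33 entries that these genes had. The median first base of a CCAAT match was 71 bases before the start. A CHR and a CCAAT match overlapped in 1 place. An E2F 8-mer was found in 1 promoter, that of Cdk1 (3.23%, against 2.60%), whereas 17 of 39 promoters of a list of DNA replication genes held one (43.6%). In that replication list 12 of 39 promoters held a CHR (30.8%), in a further list of mitosis genes 45 of 70 did (64.3%), and among core subunits of the anaphase-promoting complex 2 of 16 did. These matches are a description of letters in a window and not of bound sites, and a window with no match says only that these letters are not in it.

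**Figure D1:**
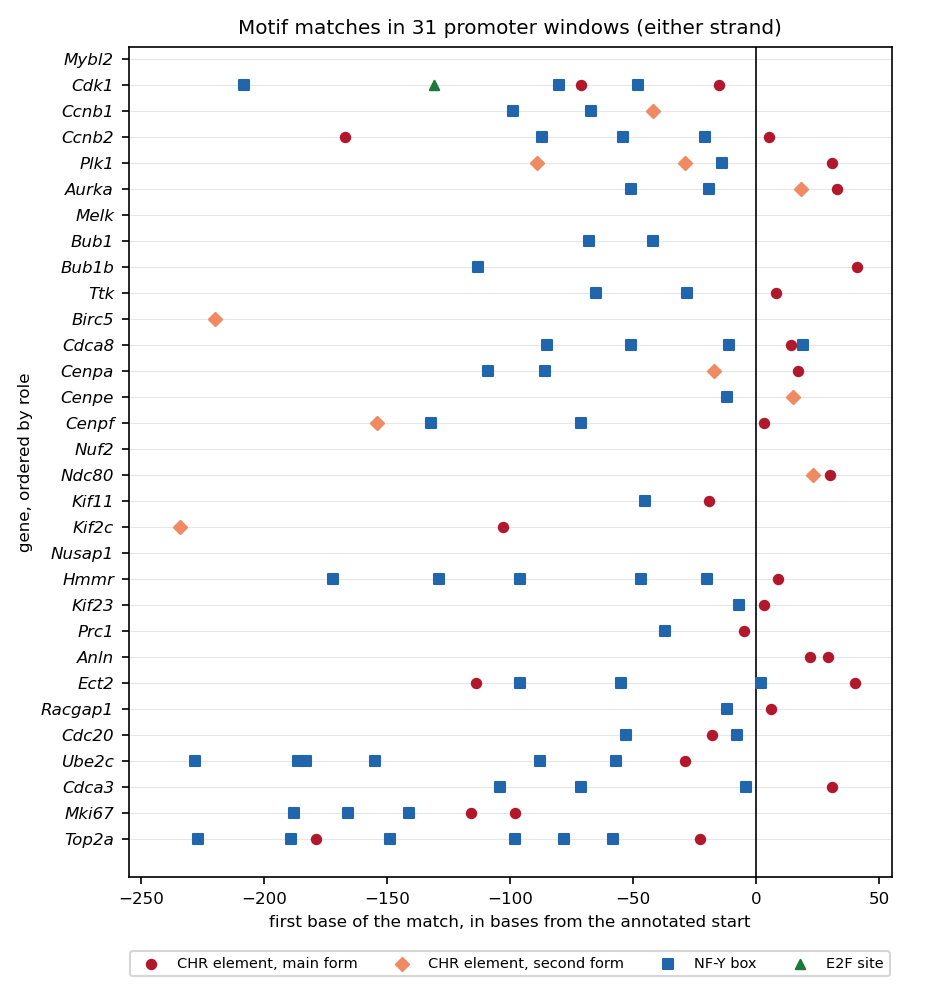
Each line is the promoter of 1 of 31 genes and each mark the first base of a motif match, in bases from the annotated start (0, vertical line), for both CHR forms, the NF-Y box and the E2F 8-mers. CHR marks gather within 50 bases of the start in 23 genes and NF-Y boxes lie mostly further upstream, with a median of -71.

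All the members were low in whole lung. Read counts per gene and library ran from 22 for Ttk to 1452 for Mki67. Per length, Cdc20, the activator of the anaphase-promoting complex, was highest with a mean of 4.33 ± 1.12 FPKM (read counts relative to gene length and library total, SD over 12 libraries). Mki67, the source of the Ki-67 antigen, followed at 2.67 ± 0.754 FPKM and cyclin B2 (Ccnb2) at 2.61 ± 0.684 FPKM. Mki67 and Ccnb2 differed by less than their SDs, and Cdc20 lay above both by more than its own SD. The lowest were the kinetochore gene Ndc80 at 0.313 ± 0.0877 FPKM and the checkpoint kinase gene Ttk at 0.252 ± 0.0917 FPKM, again within their spread of each other.

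The members varied together from library to library, and the highest values lay in a pair of libraries of 1 genotype. S1pr1 KO 4 and S1pr1 KO 3 were the highest pair of the 12 libraries in 27 of 36 members, against 3.19% of all genes tested. S1pr1 KO 4 was highest in 30 members, S1pr1 KO 3 in 5 and C3 KO 3 in 1, which was Ube2c. WT 3 was the lowest library in 18 members, against 11.9% of all genes tested. S1pr1 KO 2 was lowest in 7 and C3 KO 3 in 5, beside 2195 and 1984 of all 20229 genes. A score for the whole list, the mean log2 CPM of its 36 genes, was 2.23, 2.11, 1.70 and 2.34 in WT 1 to 4. It was 1.98, 2.35, 1.97 and 2.23 in C3 KO 1 to 4. In S1pr1 KO 1 to 4 it was 2.04, 1.86, 2.66 and 2.92. Thus S1pr1 KO 1 and 2 lay among the WT and C3 KO libraries, S1pr1 KO 3 and 4 lay above all of them, and the groups overlapped. Group means were 2.09 ± 0.28 in WT, 2.13 ± 0.19 in C3 KO and 2.37 ± 0.50 in S1pr1 KO (SD, n = 4). Summed over the members, 145 to 222 CPM were found in WT, 179 to 231 in C3 KO and 166 to 339 in S1pr1 KO. In bulk tissue, fewer dividing cells and less of this RNA in each cannot be told apart.

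**Figure D2:**
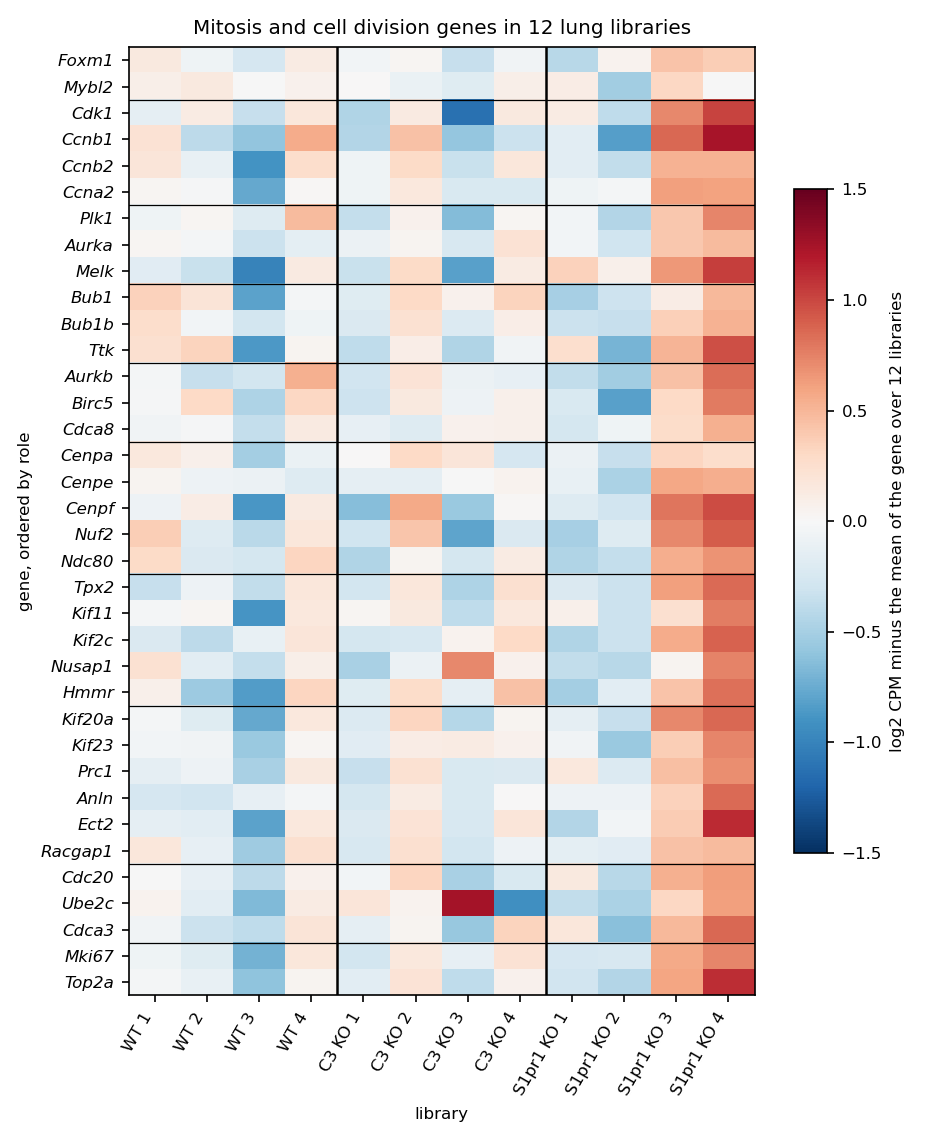
Colour shows log2 CPM of each member (rows, ordered by role) minus its mean over the 12 libraries (columns, grouped by genotype). The columns of S1pr1 KO 3 and S1pr1 KO 4 are red in almost every gene and WT 3 is blue in most, and Ube2c has its own high value in C3 KO 3.

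The spread inside the S1pr1 KO group was therefore wide. The median within-group SD of log2 CPM over the members was 0.52 in S1pr1 KO, against 0.30 in WT and 0.25 in C3 KO. Over 8114 genes of the same range of levels it was 0.19 in S1pr1 KO, 0.20 in WT and 0.21 in C3 KO.

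S1pr1 KO was compared with WT first, which asks what the receptor's conditional loss did to these genes. None of the 36 members passed the test: 0 had a Benjamini-Hochberg adjusted p under 0.05 in edgeR's quasi-likelihood test, against 1.35% of all genes tested. At an unadjusted p under 0.05 there were 4, all higher in S1pr1 KO, against 9.94% of all genes that were higher at that p and 18.0% that differed in either direction. DESeq2 gave 0 adjusted and 4 unadjusted (beside 4226 of 36139 genes unadjusted), and limma voom 0 and 8 (beside 4551 of 20229 genes unadjusted). Limma on FPKM values gave 0 and 1 among the 30 members it tested, since Ttk, Cenpe, Cenpf, Nuf2, Ndc80 and Kif2c were under its filter in all comparisons. Over all genes it gave 3116 of 17521 unadjusted with FPKM + 1 and 3142 with FPKM + 0.1. The log2 fold change was above 0 in 35 of 36 members, against 49.8% of all genes, with a median of 0.35 (all genes 0.00) and a range from -0.07 to 0.85. That median rested on single libraries. It was 0.12, with 27 of 36 members above 0 and 0 at an unadjusted p under 0.05, without S1pr1 KO 4. It was 0.51, with 36 above 0, without the library labelled S1pr1 KO 2. In that fit 14 members were at an unadjusted p under 0.05, beside 3533 of 20609 genes. The median of the members was 0.22 without WT 3. No member separated the 2 groups without overlap, whereas 6.16% of all genes did so upwards.

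C3 KO was compared with the same 4 WT libraries, so the comparisons are not independent of each other. No member passed edgeR's quasi-likelihood test, with 0.00989% of all genes doing so, and 0 members had an unadjusted p under 0.05, against 11.0% of all genes. DESeq2 and limma voom likewise gave 0 adjusted and 0 unadjusted, as did limma on FPKM values for 30 members. Over all genes, DESeq2 gave 155 adjusted and 2458 of 36139 unadjusted, and limma voom 21 and 2186 of 20229. Limma on FPKM values gave 6 adjusted in both forms. It had 1931 of 17521 genes unadjusted with FPKM + 1 and 1946 with FPKM + 0.1. The log2 fold change was above 0 in 24 of 36 members, against 49.8% of all genes, with a median of 0.07 and a range from -0.28 to 0.47. Without WT 3 the median was -0.05 and 13 of 36 were above 0. With C3 KO 4 left out it was 0.03 and 19 were above 0.

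The knockouts were also set against each other. No member and no other gene passed edgeR's quasi-likelihood test in S1pr1 KO against C3 KO (0 of 36 members and 0% of all genes). DESeq2, limma voom and, for 30 members, limma on FPKM values gave 0 members too, though DESeq2 gave 295 genes over the whole table. At an unadjusted p under 0.05 there were 3 members in edgeR, all higher in S1pr1 KO, against 6.58% of all genes that were higher at that p. DESeq2 had 4 members at that p, limma voom 10 and limma on FPKM values 1. Over all genes DESeq2 had 2847 of 36139 and limma voom 3291 of 20229. Limma on FPKM values had 2029 of 17521 genes with FPKM + 1 and 2021 with FPKM + 0.1. The log2 fold change was above 0, that is higher in S1pr1 KO, in 32 of 36 members, against 50.7% of all genes, with a median of 0.27 and a range from -0.26 to 0.70. Leaving out S1pr1 KO 4 brought the median to 0.09, and leaving out the library labelled S1pr1 KO 2 brought it to 0.44. Without the library labelled C3 KO 4 it was 0.32.

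The weight of single libraries was also read member by member. In S1pr1 KO against WT, 33 of the 35 members above 0 had a log2 fold change more than 1.5 times smaller, or under 0, without S1pr1 KO 4, and 14 had one more than 1.5 times larger without the library labelled S1pr1 KO 2. Without that library Cdk1 was at 0.69, Ccnb1 at 0.73 and Top2a at 0.73, in place of 0.49, 0.46 and 0.53. In S1pr1 KO against C3 KO the corresponding counts were 29 and 13. In C3 KO against WT, 16 of the 24 members above 0 were more than 1.5 times smaller or under 0 without the library labelled C3 KO 4, and 4 were more than 1.5 times larger, among them Ube2c at 0.73. Over all 24 alternatives, the sign changed at least once in 22 members in C3 KO against WT, in 9 in S1pr1 KO against WT and in 10 in S1pr1 KO against C3 KO.

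**Figure D3:**
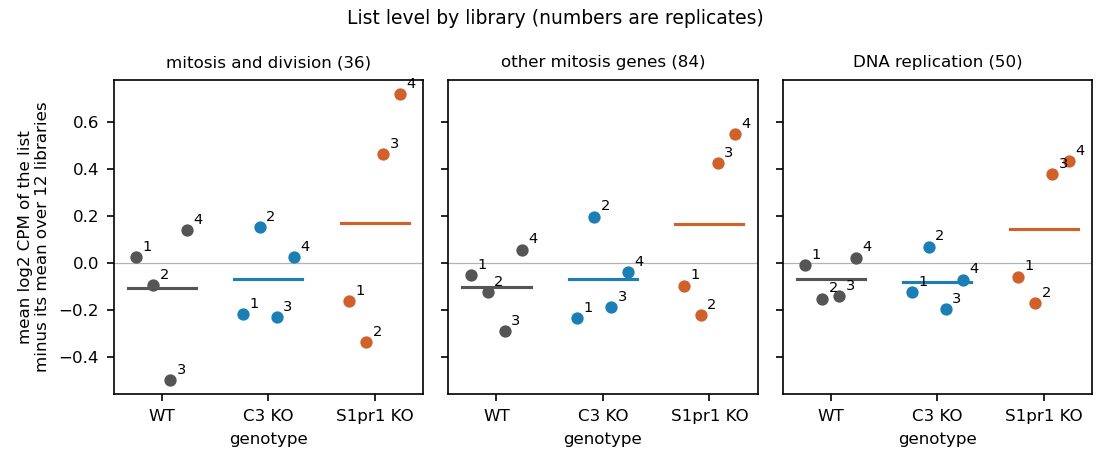
Points are libraries (numbered by replicate), lines group means, and the vertical axis the mean log2 CPM of a gene list minus its mean over 12 libraries, for the 36 members, 84 other mitosis genes and 50 DNA replication genes. In each panel S1pr1 KO 3 and 4 lie above the other 10 libraries.

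The 2 transcription factors had the lowest median log2 fold change of the roles in S1pr1 KO against WT, 0.04. Foxm1 (ENSMUSG00000001517, chromosome 6, 128339930 to 128353109, on GRCm39 as all gene positions here), which switches on genes of G2 and mitosis, gave 8.45, 7.30, 6.41 and 8.31 CPM in WT 1 to 4. In order, C3 KO 1 to 4 gave 7.43, 7.82, 6.02 and 7.37 CPM, and S1pr1 KO 1 to 4 gave 5.72, 7.90, 10.3 and 9.89 CPM. S1pr1 KO thus held both the lowest and the highest Foxm1 of all 12 libraries. Its log2 fold change was 0.15 ± 0.17 (SE) in S1pr1 KO against WT (edgeR adjusted p = 0.718) and -0.09 ± 0.18 in C3 KO against WT (edgeR adjusted p = 0.899). Mybl2 (ENSMUSG00000017861, chromosome 2, 162896607 to 162926608), the B-Myb gene that itself acts at the G1 to S boundary and later on CHR promoters, gave 4.12, 4.31, 3.87 and 4.06 CPM in WT 1 to 4. Values were 3.90, 3.63, 3.44 and 4.15 CPM in C3 KO 1 to 4 and 4.20, 2.71, 4.81 and 3.89 CPM in S1pr1 KO 1 to 4, where the library highest in most members, S1pr1 KO 4, had less Mybl2 than 3 of 4 WT libraries. Mybl2 was the only member with a log2 fold change under 0 in S1pr1 KO against WT (-0.07 ± 0.16, edgeR adjusted p = 0.876), and that sign changed without the library labelled S1pr1 KO 2, where the value was 0.07. Without S1pr1 KO 4 the Foxm1 value was also 0.07.

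The cyclins and their kinase showed the library pattern in full. Cdk1 (ENSMUSG00000019942, chromosome 10, 69170976 to 69188768), the kinase that starts mitosis, gave 3.46, 4.14, 2.99 and 4.28 CPM in WT 1 to 4. The 4 C3 KO libraries gave 2.78, 4.19, 1.75 and 4.20 CPM, and those of S1pr1 KO gave 4.15, 2.91, 6.27 and 7.66 CPM. S1pr1 KO 3 and 4 were above every other library and C3 KO 3 was below every other library. Cdk1 had a log2 fold change of 0.49 ± 0.32 in S1pr1 KO against WT (edgeR adjusted p = 0.449), -0.20 ± 0.32 in C3 KO against WT (edgeR adjusted p = 0.870) and 0.70 ± 0.32 in S1pr1 KO against C3 KO (edgeR adjusted p = 0.412). Without S1pr1 KO 4 its value against WT was 0.26. Ccnb1 (ENSMUSG00000041431, chromosome 13, 100915158 to 100923078), cyclin B1 and the partner of Cdk1, gave 2.55, 1.67, 1.46 and 3.24 CPM in WT 1 to 4. In order, C3 KO 1 to 4 gave 1.62, 2.99, 1.47 and 1.77 CPM, and S1pr1 KO 1 to 4 gave 1.97, 1.24, 3.98 and 5.19 CPM. The S1pr1 KO group again held the lowest and the highest library. Its log2 fold change was 0.46 ± 0.42 in S1pr1 KO against WT (edgeR adjusted p = 0.613) and -0.19 ± 0.42 in C3 KO against WT (edgeR adjusted p = 0.914). The Ccnb1 value in S1pr1 KO was 0.10 without S1pr1 KO 4.

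Ccna2 (ENSMUSG00000027715, chromosome 3, 36619014 to 36626299) encodes cyclin A2, which acts from S phase into early mitosis. WT 1 to 4 gave 5.85, 5.65, 3.37 and 5.82 CPM, so WT 3 stood well under its group. Values were 5.49, 6.41, 4.89 and 4.89 CPM in C3 KO 1 to 4 and 5.49, 5.61, 8.76 and 8.70 CPM in S1pr1 KO 1 to 4. Here the S1pr1 KO group held 2 libraries at the WT level and 2 above every library of the other groups. The log2 fold change was 0.46 ± 0.21 in S1pr1 KO against WT (edgeR adjusted p = 0.275) and 0.40 ± 0.21 against C3 KO (edgeR adjusted p = 0.492). Ccnb2, for cyclin B2, ran from 2.08 to 4.66 CPM in WT, from 3.08 to 4.74 CPM in C3 KO and from 3.01 to 5.58 CPM in S1pr1 KO.

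Of the mitotic kinases, Melk had the largest log2 fold change of the list in S1pr1 KO against WT. Melk (ENSMUSG00000035683, chromosome 4, 44300876 to 44364675), a serine/threonine kinase of the AMPK family that is abundant in dividing cells, gave 1.78, 1.59, 0.996 and 2.19 CPM in WT 1 to 4. The 4 C3 KO libraries gave 1.59, 2.43, 1.14 and 2.18 CPM, and those of S1pr1 KO gave 2.54, 2.11, 3.13 and 4.10 CPM. In 3 of 4 S1pr1 KO libraries Melk was above every WT and C3 KO library, and the library labelled S1pr1 KO 2 lay inside the WT range. For Melk the log2 fold change was 0.85 ± 0.30 in S1pr1 KO against WT, with a 95% confidence interval from 0.21 to 1.49 (edgeR adjusted p = 0.158), and 0.69 ± 0.30 against C3 KO (edgeR adjusted p = 0.384). Leaving out 1 library at a time moved the first value between 0.66 (without S1pr1 KO 4) and 1.02 (without WT 4). Plk1, the polo-like kinase that acts from centrosome maturation to cytokinesis, gave 3.70, 3.95, 3.37 and 5.38 CPM in WT 1 to 4, 3.01, 4.04, 2.47 and 3.94 CPM in C3 KO 1 to 4, and 3.75, 2.86, 5.13 and 6.44 CPM in S1pr1 KO 1 to 4. It had the lowest fold change of the list in C3 KO (-0.28 ± 0.26, edgeR adjusted p = 0.737) with 2 of 4 C3 KO libraries under every WT library. Aurka, Aurora kinase A of the spindle poles, differed by 0.28 ± 0.18 on the log2 scale in S1pr1 KO against WT (edgeR adjusted p = 0.461).

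The 3 spindle checkpoint genes had a median log2 fold change of 0.11 in S1pr1 KO against WT. Bub1, a kinetochore kinase, had a log2 fold change of 0.00 ± 0.26 in S1pr1 KO against WT, with libraries from 1.79 to 3.98 CPM in WT and from 2.22 to 4.36 CPM in S1pr1 KO. Bub1b, for the checkpoint protein BubR1, stood at 0.11 ± 0.20 and spread over 7.01 to 12.8 CPM in S1pr1 KO, around a WT range of 7.38 to 10.7 CPM. Ttk, for the checkpoint kinase Mps1, stood at 0.36 ± 0.34 on very few reads, from 22 to 77 per library. In C3 KO against WT these 3 genes lay between -0.19 and 0.15, with adjusted p of at least 0.887 in edgeR.

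The chromosomal passenger complex, which corrects faulty attachments and then marks the midzone, was represented by its kinase Aurkb, by Birc5 (survivin) and by Cdca8 (borealin). Their log2 fold changes in S1pr1 KO against WT were between 0.06 and 0.21, and in C3 KO between -0.09 and 0.02. Birc5 was lowest of all 12 libraries in S1pr1 KO 2 (1.94 CPM) and highest in S1pr1 KO 4 (5.82 CPM), so its group mean barely differed from WT while its libraries did.

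At the kinetochore, Cenpa, the histone H3 variant that marks centromeres, gave 11.6, 11.0, 7.26 and 9.66 CPM in WT 1 to 4, 10.4, 12.8, 11.7 and 8.73 CPM in C3 KO 1 to 4, and 9.73, 8.17, 13.0 and 12.4 CPM in S1pr1 KO 1 to 4. The 3 groups overlapped almost wholly, with log2 fold changes of 0.14 ± 0.18 in C3 KO (edgeR adjusted p = 0.830) and 0.13 ± 0.18 in S1pr1 KO (edgeR adjusted p = 0.764). Cenpf, a large kinetochore protein made in G2, had the largest value of this group of genes, 0.55 ± 0.35 in S1pr1 KO against WT (edgeR adjusted p = 0.439), where S1pr1 KO 3 and 4 had 8.55 and 9.74 CPM and no other library exceeded 7.32 CPM. Nuf2 and Ndc80, both of the Ndc80 complex that grips microtubules, and the motor gene Cenpe had log2 fold changes of 0.32, 0.12 and 0.27 in S1pr1 KO.

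Genes of spindle assembly had small positive values in both knockouts when all 12 libraries were used. Tpx2, which seeds microtubules at chromosomes, the motor Kif11, which pushes the poles apart, the depolymerase Kif2c, and the microtubule binders Nusap1 and Hmmr had log2 fold changes from 0.11 to 0.45 in S1pr1 KO against WT and from 0.09 to 0.29 in C3 KO against WT. Hmmr, the highest of them in C3 KO (0.29 ± 0.32, edgeR adjusted p = 0.791), gave 2.48, 1.62, 1.32 and 2.94 CPM in WT 1 to 4 and 2.08, 2.84, 2.14 and 3.20 CPM in C3 KO 1 to 4. In S1pr1 KO it was at 1.65, 2.11, 3.16 and 4.19 CPM. All of these ranges overlap. Single libraries changed some signs in C3 KO against WT. Tpx2 and Kif2c were each at -0.02 without C3 KO 4, Kif11 at -0.05 without WT 3 and Nusap1 at -0.11 without C3 KO 3. Hmmr stayed above 0. In S1pr1 KO against WT, Nusap1 was at -0.20 without S1pr1 KO 4.

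The genes of the central spindle and of cytokinesis had a median log2 fold change of 0.46 in S1pr1 KO against WT, with 6 of 6 above 0, and of 0.11 in C3 KO against WT. Anln (ENSMUSG00000036777, chromosome 9, 22243308 to 22300484), for anillin, the scaffold of the contractile ring, gave 7.72, 7.54, 8.43 and 9.05 CPM in WT 1 to 4. In order, C3 KO 1 to 4 gave 7.66, 10.04, 7.83 and 9.26 CPM, and S1pr1 KO 1 to 4 gave 8.73, 8.72, 11.7 and 16.6 CPM. S1pr1 KO 3 and 4 were above all other libraries and S1pr1 KO 1 and 2 lay inside the WT range. Anln had a log2 fold change of 0.48 ± 0.19 against WT, interval 0.07 to 0.89 (edgeR adjusted p = 0.204), and 0.39 ± 0.19 against C3 KO (edgeR adjusted p = 0.435). Without S1pr1 KO 4 the Anln value against WT was 0.25.

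Prc1 (ENSMUSG00000038943, chromosome 7, 79944198 to 79966007), which bundles antiparallel microtubules of the midzone, gave 6.37, 6.58, 4.98 and 7.68 CPM in WT 1 to 4. Values were 5.49, 8.17, 5.94 and 5.99 CPM in C3 KO 1 to 4 and 7.80, 6.06, 9.53 and 11.3 CPM in S1pr1 KO 1 to 4. In 3 of 4 S1pr1 KO libraries Prc1 was above every WT library, and the library labelled S1pr1 KO 2 was the exception. For Prc1 the log2 fold change was 0.44 ± 0.20 against WT (edgeR adjusted p = 0.274) and 0.44 ± 0.20 against C3 KO (edgeR adjusted p = 0.410), and 0.29 in both without S1pr1 KO 4. Ect2 (ENSMUSG00000027699, chromosome 3, 27151371 to 27208027), the exchange factor that activates RhoA at the division plane, gave 3.77, 3.70, 2.37 and 4.61 CPM in WT 1 to 4 and 3.56, 4.77, 3.50 and 4.68 CPM in C3 KO 1 to 4. In S1pr1 KO it was at 3.05, 4.02, 5.39 and 8.99 CPM with S1pr1 KO 4 far above the rest. Its log2 fold change against WT was 0.56 ± 0.30 (edgeR adjusted p = 0.352), and 0.20 without S1pr1 KO 4.

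Kif23 and Racgap1, which form the centralspindlin complex with each other, and the motor Kif20a completed this role. Kif23 gave 8.85, 8.78, 6.18 and 9.27 CPM in WT 1 to 4, 8.13, 9.81, 9.88 and 9.52 CPM in C3 KO 1 to 4, and 8.77, 6.21, 11.8 and 15.2 CPM in S1pr1 KO 1 to 4. In C3 KO, 3 of 4 libraries were above every WT library, by small margins, and the log2 fold change was 0.17 ± 0.23 (edgeR adjusted p = 0.834). In S1pr1 KO against WT it was 0.34 ± 0.23 for Kif23, 0.21 ± 0.20 for Racgap1 and 0.53 ± 0.29 for Kif20a.

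For the exit from mitosis, Cdc20 and Cdca3, the latter a trigger of mitotic entry through destruction of Wee1, had log2 fold changes of 0.38 ± 0.22 and 0.44 ± 0.28 in S1pr1 KO against WT and of 0.02 and 0.08 in C3 KO against WT. Ube2c (ENSMUSG00000001403, chromosome 2, 164611818 to 164620742), the E2 enzyme that hands ubiquitin to the anaphase-promoting complex, did not follow the others. It gave 4.66, 4.03, 2.84 and 4.91 CPM in WT 1 to 4 and 3.46, 3.23, 5.55 and 6.89 CPM in S1pr1 KO 1 to 4. In C3 KO it was at 5.09, 4.65, 10.7 and 2.38 CPM, so the highest and the lowest library of all 12 were both C3 KO. Its log2 fold change in C3 KO against WT was 0.47 ± 0.39 (edgeR adjusted p = 0.709), the largest of the list in that comparison.

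The Ube2c value turned on C3 KO 3, and that library also stood apart in red cell markers. The mean log2 CPM of 17 red cell genes tested, of 18 listed, was 5.94 in C3 KO 3 and 1.80 to 3.84 in the other 11 libraries. Summed over the list the red cell genes reached 24896 CPM in C3 KO, from a low of 1386, against 1050 to 2785 CPM in WT and 1342 to 3087 CPM in S1pr1 KO. Besides the globins, the late precursor genes Alas2 and Slc4a1 peaked at 866 and 130 CPM. Of the 18 genes, Hemgn was at 0 in 3 libraries and Tspo2 in 1. Without C3 KO 3 the log2 fold change of Ube2c in C3 KO against WT was -0.02, and with the red cell score as a covariate it was -0.26. Nusap1 behaved in part alike, with 7.58 CPM in C3 KO 3 against 3.30 to 4.81 CPM in the other C3 KO libraries and a second high value of 7.72 CPM in S1pr1 KO 4. Over 12 libraries that share these samples and their depth, the Pearson r of log2 CPM with the red cell score was 0.80 for Ube2c, 0.50 for Nusap1 and 0.45 for Cenpa, and -0.53 for Cdk1 and -0.47 for Plk1. C3 KO 3 was highest in both Ube2c and the red cell score. The covariate fit and the r of 0.80 are therefore not separate from the effect of leaving that library out. Whether red cell precursors carry the Ube2c RNA was not tested.

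**Figure D4:**
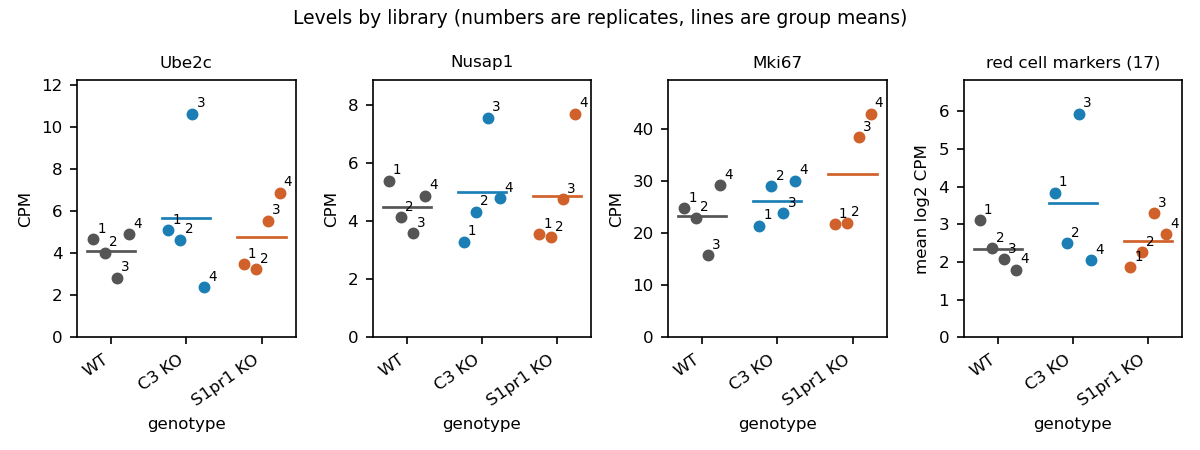
CPM of Ube2c, Nusap1 and Mki67 and the mean log2 CPM of 17 red cell markers in each library (points, numbered by replicate) with group means (lines). C3 KO 3 is the top point for Ube2c (10.7 CPM) and for the red cell markers (5.94) but not for Mki67 (24.0 CPM).

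The proliferation markers in commonest use gave the pattern at the highest counts. Mki67 (ENSMUSG00000031004, chromosome 7, 135291513 to 135318090), which coats mitotic chromosomes, gave 24.9, 23.0, 15.9 and 29.2 CPM in WT 1 to 4, a mean of 23.3 ± 5.56 (SD, n = 4). The 4 C3 KO libraries gave 21.5, 29.0, 24.0 and 30.2 CPM (26.2 ± 4.12), and those of S1pr1 KO gave 21.8, 22.1, 38.6 and 43.1 CPM (31.4 ± 11.1). S1pr1 KO 3 and 4 were above every library of the other groups, and S1pr1 KO 1 and 2 lay within the WT range. Mki67 had a log2 fold change of 0.43 ± 0.24 in S1pr1 KO against WT (edgeR adjusted p = 0.372), 0.17 ± 0.24 in C3 KO against WT (edgeR adjusted p = 0.850) and 0.26 ± 0.24 in S1pr1 KO against C3 KO (edgeR adjusted p = 0.706). Without S1pr1 KO 4 the Mki67 value was 0.24 against WT and 0.07 against C3 KO. Top2a (ENSMUSG00000020914, chromosome 11, 98883769 to 98915015), the topoisomerase that untangles sister chromatids, gave 16.8, 15.8, 11.2 and 17.6 CPM in WT 1 to 4. In order, C3 KO 1 to 4 gave 15.4, 19.8, 13.1 and 17.8 CPM, and S1pr1 KO 1 to 4 gave 14.0, 12.6, 25.7 and 36.8 CPM. The same 2 libraries stood out and the other S1pr1 KO libraries sat below 3 of 4 WT libraries. Its log2 fold change was 0.53 ± 0.29 in S1pr1 KO against WT (edgeR adjusted p = 0.367) and 0.19 without S1pr1 KO 4.

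**Figure D5:**
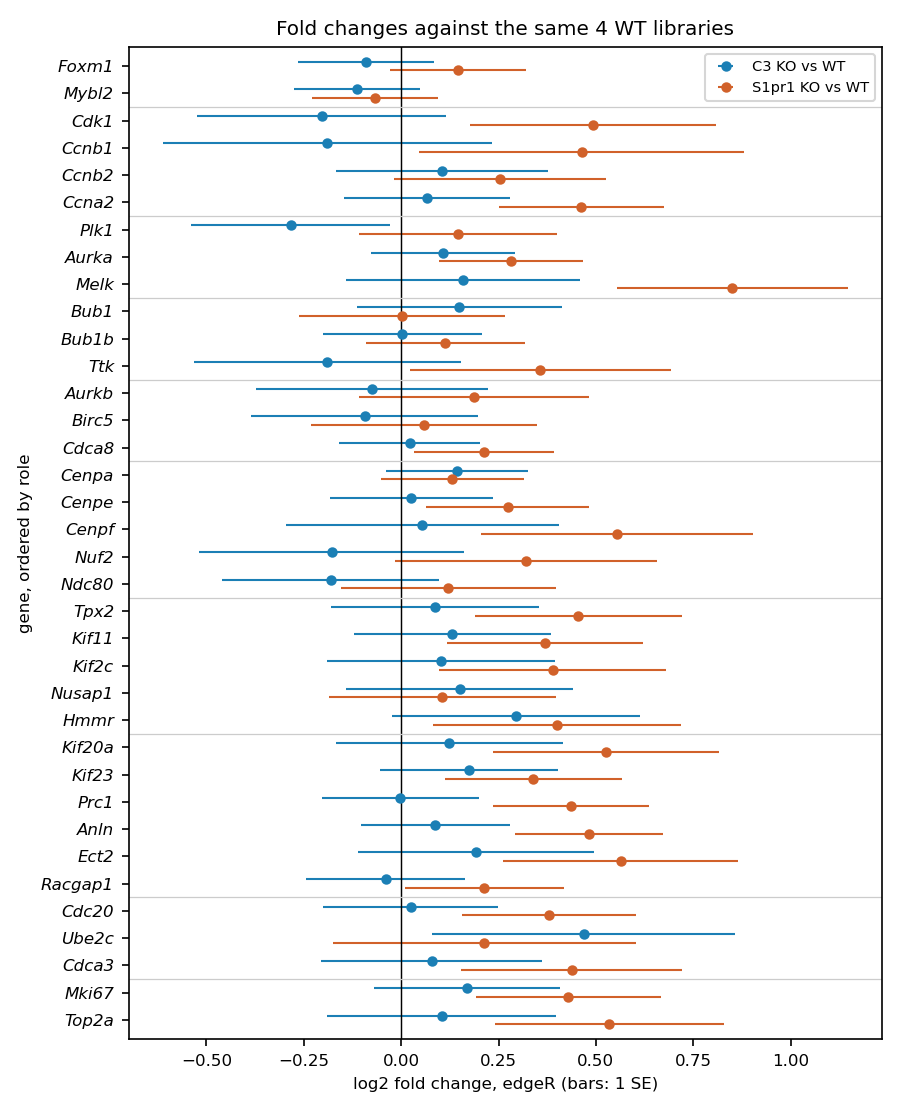
Points are edgeR log2 fold changes of the 36 members in C3 KO and in S1pr1 KO, both against the same 4 WT libraries, and bars are 1 SE. In S1pr1 KO 35 of 36 points lie above 0, up to 0.85 for Melk, and in C3 KO 24 of 36 do, and no gene passed the test.

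The members also varied together in a way that can be stated per pair. Over the 630 pairs of members, the median Pearson r of log2 CPM across 12 libraries was 0.76, with a range from -0.11 to 0.96, and 538 pairs were above 0.5. After the group means were subtracted the median was 0.78, with the 3 groups pooled, so the members also varied together around their group means. The S1pr1 KO libraries weigh most in this value, since the median SD of the members was 0.52 there, 0.30 in WT and 0.25 in C3 KO. The r within each group alone was not computed. The pairs share libraries and their depth. Top2a, Kif20a and Mki67 were the closest to the rest, and Top2a with Kif20a was the closest pair at 0.96. Ube2c (r of 0.34 with the mean of the others), Mybl2 (0.41) and Nusap1 (0.56) were the least like it. Neither Mybl2 nor Nusap1 had a CHR in its promoter window, but Melk and Nuf2, which had none either, had r of 0.83 and 0.87, and Ube2c had 1 CHR and 6 CCAAT boxes.

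Outside the list, the genes most like it by the r of log2 CPM with the member score over 12 libraries, among 14844 protein coding genes of at least 0.5 CPM, were Aspm (r = 0.97) and the DNA glycosylase gene Neil3 (0.97). Spdl1 and Ncapd3 followed at 0.94 each, then Kif14, Ncapg, Ccnf, Spag5, Ckap2 and Iqgap3, the last at 0.92. Most of these code for parts of the spindle, of condensin or of the mitotic cyclin system. Aspm, which shapes spindle poles, was at 2.43 to 4.72 CPM in WT, 2.67 to 4.89 CPM in C3 KO and 3.24, 3.18, 6.45 and 8.01 CPM in S1pr1 KO 1 to 4, the split the members showed.

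Other parts of the cell cycle were read from lists of genes. Of 84 other mitosis genes, 73 had a log2 fold change above 0 in S1pr1 KO against WT, with a median of 0.27, and 0 passed the test in edgeR (15 at an unadjusted p under 0.05, or 17.9%, beside 18.0% of all genes). The lowest p there was that of Ncapg2, a condensin II subunit, at 0.64 ± 0.16 (edgeR adjusted p = 0.0691), ahead of the securin gene Pttg1 at 0.74 ± 0.21 (edgeR adjusted p = 0.0957). Of 50 DNA replication genes, 42 were above 0 with a median of 0.18, and 0 passed in edgeR (6 at an unadjusted p under 0.05, below the share of all genes), the lowest being Chaf1a of chromatin assembly at 0.54 ± 0.13 (edgeR adjusted p = 0.0633). S1pr1 KO 3 and 4 were the highest pair of libraries in 44 of 84 and in 28 of 50 of these genes. Of 28 genes of cell cycle exit, 12 were above 0, beside 49.8% of all genes, with a median of -0.06, and 0 passed in edgeR. At an unadjusted p under 0.05 there were 8 (28.6%, beside 18.0% of all genes), 2 of them higher and 6 lower. Those of lowest p were the antiproliferative gene Btg1 at -0.45 ± 0.13 (edgeR adjusted p = 0.0965), the G1 kinase gene Cdk6 at 0.16 ± 0.05 (edgeR adjusted p = 0.101) and Cdkn1b, which encodes the inhibitor p27, at -0.31 ± 0.09 (edgeR adjusted p = 0.107). Of 17 core subunits and partners of the anaphase-promoting complex, which are present through the whole cycle, 4 were above 0 with a median of -0.09 and 0 passed in edgeR (5 at an unadjusted p under 0.05, all lower, or 29.4%). Over all genes 1.35% passed. In C3 KO against WT the medians of the 4 lists were 0.04, -0.02, 0.01 and -0.09, each with 0 passing in edgeR. At an unadjusted p under 0.05 they had 1, 1, 3 and 2 genes, beside 11.0% of all genes.

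Markers of other cells differed between S1pr1 KO and WT and are given beside the member values. Of 13 T cell genes 13 were lower, of which Cd4 and Cd6 fell by the test, and the summed level was 56.9 to 98.1 CPM against 94.1 to 134 CPM in WT. Of 9 natural killer cell genes 9 were higher, of which Klra8 rose, with 86.9 to 113 CPM against 29.2 to 70.3 CPM in WT. Of 11 B cell genes 11 were lower and 0 passed in edgeR (7 at an unadjusted p under 0.05), with 66.1 to 182 CPM against 125 to 275 CPM. Of 14 genes of ciliated cells 14 were higher, of which 4 rose, with 604 to 809 CPM against 320 to 517 CPM in WT. S1pr1 KO 4 was the highest of 12 libraries in 10 of them, beside 1837 of all 20229 genes. Of 10 endothelial genes 9 were lower, of which Gpihbp1, the capillary anchor of lipoprotein lipase, fell (-0.45 ± 0.09, edgeR adjusted p = 0.0440), with 3734 to 4207 CPM against 4234 to 4756 CPM. Of 11 alveolar macrophage genes 10 were lower, with 652 to 772 CPM against 810 to 1055 CPM in WT. Of these 11 genes, 3 were lower without overlap, beside 1048 of all 20229 genes. In edgeR 0 of them passed and 2 (18.2%) had an unadjusted p under 0.05. Skeletal muscle genes set 2 libraries apart, with 317 CPM in WT 2 and 320 CPM in the library labelled S1pr1 KO 2 against 20.4 to 68.3 CPM in the others. The library labelled C3 KO 4 had the most alveolar macrophage RNA, 2122 CPM, and the least endothelial RNA, 3321 CPM, by these lists. Mammary epithelial genes summed to 1786 to 2160 CPM in S1pr1 KO and 1767 to 1918 CPM in WT, and their mean log2 CPM over 23 genes tested was 3.21, 4.08, 4.12 and 4.25 in S1pr1 KO 1 to 4, 3.02 to 4.04 in WT and 2.96 to 3.51 in C3 KO. Neither T cell nor natural killer markers were split as the members were, between S1pr1 KO 1 and 2 on one side and S1pr1 KO 3 and 4 on the other. The mean log2 CPM of B cell markers was 2.36, 2.45, 3.95 and 2.55 in S1pr1 KO 1 to 4. That of red cell markers was 1.87, 2.27, 3.30 and 2.73, with up to 5.94 in C3 KO. For 10 germinal centre and plasma cell genes it was 2.78, 2.81, 3.03 and 2.92, with up to 3.35 in WT. The mammary, B cell, red cell and germinal centre lists were all lower in S1pr1 KO 1 and 2 than in S1pr1 KO 3 and 4. For the mammary list the nearest values were 4.08 in S1pr1 KO 2 and 4.12 in S1pr1 KO 3. For the B cell list they were 2.45 in S1pr1 KO 2 and 2.55 in S1pr1 KO 4. None of the T cell, natural killer, B cell or ciliated genes was at 0 in any library. The part of these cells in the member values was not tested, except that with the B cell score as a covariate the median of the members in S1pr1 KO against WT was 0.48 with 0 called.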

How the data were processed

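RNA of 12 lung samples was sequenced, and the titles and genotype labels gave each sample its group. The count table deposited by the authors holds 1 column of whole-number counts per library. The submitters' processing notes name CASAVA, STAR, GRCm39 and mm39 and no versions. The counting tool, strand setting and annotation release were not given in the sources used here. Reads of overlapping or antisense genes can therefore not be told apart. The FPKM table deposited by the authors equals counts per listed gene length and per effective library size (0.997 to 1.01 times the TMM effective size). FPKM values served for levels between genes and for an alternative.

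The test was edgeR 4.0.16 (R 4.3.3), after filterByExpr (20229 genes kept) and TMM scaling, by a quasi-likelihood fit of 3 group means to 12 libraries (9 residual degrees of freedom). Adjustment followed Benjamini and Hochberg over all genes tested, with a threshold of 0.05. CPM are relative to the TMM-scaled total, log2 CPM used a prior count of 2, and the SE of a fold change was back-calculated from its F statistic. No 2 libraries of a group agreed within sampling noise (chi-square per degree of freedom at least 13.4). The fitting code was tested on simulated data. Values in every library were given for Mki67, Top2a, Cdk1, Ccnb1, Foxm1 and Mybl2 and for the 5 members of lowest p in each comparison, and the 10 tested protein coding genes of highest r with the member score were named. Members and lists were chosen with earlier results of these data known. Other genes of the lists were named after their p-values were ranked.

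Alternatives were DESeq2 1.42.0, limma 3.58.1 (voom with quality weights, and log2(FPKM + 1) and log2(FPKM + 0.1) of genes that reached 0.5 FPKM in 4 libraries), scaling by RLE or upper quartile, other filters (none, or 1 CPM in 4 libraries), only the 2 groups compared, red cell or B cell scores as covariates, each library left out in turn, and, chosen after seeing the data, both libraries whose targeted gene goes against the label left out. Promoter letters came from a RefSeq table of build GRCm38.p6, and gene positions from the deposited table, on GRCm39. The precision of each value is limited by 4 libraries a group and by the read counts of the members.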

Additional observations from a re-analysis of the deposited data

Results flagged for a closer look

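The 111 sets of 4 libraries examined were the 36 members in 3 groups and the 3 sets of member scores. Of these, 2 held a library whose gap to its nearest neighbour took up more than 0.829 of the range of the group. Chance gives a gap above that cut in about 1 in 20 groups, and 2 of 111 is under that rate. Both were low values of WT 3. Ccna2, for cyclin A2, was at 3.37 CPM in WT 3, while the other WT libraries lay between 5.65 and 5.85 CPM. Kif23, of the central spindle, was at 6.18 CPM in WT 3, while the others lay between 8.78 and 9.27 CPM. WT 3 was also the lowest of the 12 libraries in 18 of 36 members.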

How the results depend on the processing

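No member tested was called in any of the 24 alternatives of any comparison, DESeq2 and limma included, but 6 of 36 were not tested in both FPKM fits, and calls over all genes moved. Against 2 in C3 KO against WT, DESeq2 gave 155, limma voom 21, both FPKM fits 6, a fit of only the 2 groups 1, and the red cell and B cell covariates 1 each. Leaving out 1 library gave 1 to 32 (without C3 KO 4), and leaving out both libraries that go against their label 31. Against 274 in S1pr1 KO against WT, the values were 1223 by DESeq2, 928 by limma voom, 171 and 150 by FPKM + 1 and FPKM + 0.1, 416 with the red cell score, 88 with the B cell score and 473 without both libraries. With 1 library left out there were 2 (without S1pr1 KO 4) to 571 (without C3 KO 4). Against 0 in S1pr1 KO against C3 KO, the values were 295 by DESeq2, 36 by voom, 7 and 6 by FPKM, 15 without a filter, 2 with the red cell score, 3 without both libraries, and 0 to 13 with 1 library left out. The cause was not tested.

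Members above 0 were 13 (without WT 3) to 26 of 36 in C3 KO against WT, 27 (without S1pr1 KO 4) to 36 in S1pr1 KO against WT and 27 (without S1pr1 KO 4) to 36 in S1pr1 KO against C3 KO, the FPKM fits aside. The members chosen by the naming rule of a comparison changed sign there as follows. In C3 KO against WT, values with 1 library left out ran from -0.36 to 0.0073 (without C3 KO 3) for Cdk1, from -0.46 to 0.042 (without WT 4) for Ccnb1, from -0.015 (without WT 3) to 0.21 for Top2a and from -0.023 (without C3 KO 3) to 0.73 for Ube2c, which was -0.26 with the red cell score. Mybl2 in S1pr1 KO against WT was 0.0029 by voom, 0.0051 with the B cell score and 0.073 without both libraries, and its values with 1 library left out ran from -0.18 to 0.072. In S1pr1 KO against C3 KO they ran from -0.069 to 0.18. The median of the members in S1pr1 KO against WT stayed above 0 in all 24 alternatives (0.12 to 0.51). In C3 KO it ran from -0.05 to 0.14, and was -0.01 by voom. No paired analysis was possible because replicate numbers follow the order of deposition and the sample titles number all 12 samples in 1 series, so nothing pairs libraries across groups. Depth limits the members of fewest reads, such as Ttk at 22 to 77 counts, where differences of this size are within the spread.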
